A study of Mus musculus with 16 samples.

Results

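The 9 genes described here encode selenoenzymes of mouse: the glutathione peroxidases Gpx1, Gpx2, Gpx3 and Gpx4, the thioredoxin reductases Txnrd1, Txnrd2 and Txnrd3, the methionine sulfoxide reductase Msrb1 and the iodothyronine deiodinase Dio1. They were taken by gene symbol from a table of 57010 genes, and each symbol matched a single row. RNA was sequenced from the liver of 16 male wild-type C57BL/6J mice, which were 8 to 12 weeks old before the 3 months of feeding and so about 3 months older when the tissue was taken. The design crossed cadmium (Cd) with selenium (Se), so that each agent could be read alone and on top of the other. The control group received neither agent. The Cd group received intraperitoneal CdCl2 at 1.25 mg/kg on each of the last 7 days, the Se group ate food carrying 2 ppm selenomethionine (SeMet) for 3 months, and the Cd+Se group received both treatments. There were 4 mice in each group. Whether the mice without CdCl2 were injected with vehicle, and how much selenium the unsupplemented food held, are not given in the sources used here. The selenium status of the mice is therefore unknown, and the files hold mRNA levels only.

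A selenoenzyme carries selenocysteine, the selenium analogue of cysteine, at its active site. Selenocysteine is encoded by UGA, which is otherwise a stop codon, and a hairpin in the 3' untranslated part of the mRNA directs the ribosome to read through it. When selenium is scarce, some selenoprotein mRNAs, among them Gpx1, are lost by nonsense-mediated decay, whereas others, such as Gpx4 and Txnrd1, are kept. In liver these enzymes remove hydrogen peroxide and lipid hydroperoxides, keep thioredoxin reduced, repair oxidised methionine and convert thyroxine to its active form. Cadmium binds thiol and selenol groups and induces the metallothioneins.

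The selenocysteine codon is what the members share in sequence, so the coding strand around it is shown for 6 of them, with 12 bases on its 5' side, and on its 3' side 12 bases or, for the thioredoxin reductases, the last codons to the stop. Each sequence is written 5' to 3' as DNA from the GENCODE M21 transcripts, and the capitals mark the selenocysteine codon.
Gpx1: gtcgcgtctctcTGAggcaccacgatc
Gpx4: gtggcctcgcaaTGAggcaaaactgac
Txnrd1: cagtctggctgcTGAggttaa
Txnrd2: gtgactggttgcTGAggctaa
Dio1: ggcagttgcaccTGAccttcatttctt
Msrb1: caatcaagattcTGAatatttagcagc
On GRCm38 these codons lie at chr9:108339451-108339453 (+) in exon 1 of 2 of Gpx1, chr10:80054737-80054739 (+) in exon 3 of 7 of Gpx4, chr10:82896037-82896039 (+) in exon 15 of 15 of Txnrd1, chr16:18477772-18477774 (+) in exon 17 of 17 of Txnrd2, chr4:107297700-107297702 (-) in exon 2 of 4 of Dio1 and chr17:24740158-24740160 (+) in exon 3 of 4 of Msrb1. All are in coding sequence. In 3 of 3 thioredoxin reductases the UGA was the second last codon before the stop, it followed a cysteine codon (tgc) and it lay in the last exon. In the peroxidases and Dio1 it lay inside the reading frame, for example at codon 47 of 201 in Gpx1, codon 129 of 253 in Gpx4 and codon 126 of 257 in Dio1. Codon and exon numbers are those of the longest coding transcript of each gene with an annotated selenocysteine. Gpx4 has 3 such transcripts, and which of them these livers made was not tested. A UGA more than 50 bases upstream of the last exon junction is the usual textbook condition for nonsense-mediated decay. It held for 5 of 9 members (Gpx1, Gpx2, Gpx3, Gpx4 and Dio1), whereas the codon of Msrb1 was 34 bases from that junction. The next bases after the codon were GG in 7 of 9 members, Dio1 and Msrb1 being the exceptions.

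Levels are given as TPM, the share of all transcripts that belongs to a gene after scaling for transcript length, with the same sum in each library. The libraries had 10917 to 12064 genes at 1 TPM or more, and the 100 highest genes held 59.2% to 70.4% of the TPM, the highest share being that of Cd mouse 5 and the lowest that of Se mouse 40. Read depth is unknown, because TPM keep no counts. The cadmium labels were checked with the metallothioneins: the lowest Mt1 level in a Cd-injected mouse was 3178 TPM and the highest without Cd was 431 TPM, and for Mt2 the values were 2433 and 306 TPM. The 6 hepatocyte markers were together at 37830 to 111700 TPM, as the liver label requires. A sample is taken to be a mouse, since each label carries a number of its own. Nothing else in the labels states that the samples were separate animals, and p-values weigh group differences against the spread between these samples.

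The members covered a wide span of levels, and their order was nearly the same in every liver. Gpx1 was the most abundant, at a mean of 1608 TPM over the 16 mice, followed by Msrb1 (338.8 TPM), Gpx4 (303.6 TPM), Txnrd1 (50.98 TPM), Dio1 (42.6 TPM), Txnrd2 (15.41 TPM), Gpx3 (4.73 TPM), Txnrd3 (3.24 TPM) and Gpx2 (0.144 TPM). Gpx1 alone made up 68.4% ± 3.81 (SD, n = 4) of the summed TPM of the 9 genes in control, 69.7% ± 2.40 with Cd, 66.4% ± 1.76 with Cd+Se and 66.5% ± 5.39 with Se. In 5 of the 8 steps down this order the ranges did not overlap and all 16 mice kept the order. The exceptions were Msrb1 above Gpx4, which held in 10 of 16 mice, Txnrd1 above Dio1, which held in 9, and Gpx3 above Txnrd3, which held in 13. The first of these followed the groups: Msrb1 exceeded Gpx4 in 4 of 4 control, 0 of 4 Cd, 3 of 4 Cd+Se and 3 of 4 Se mice.

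**Figure D1:**
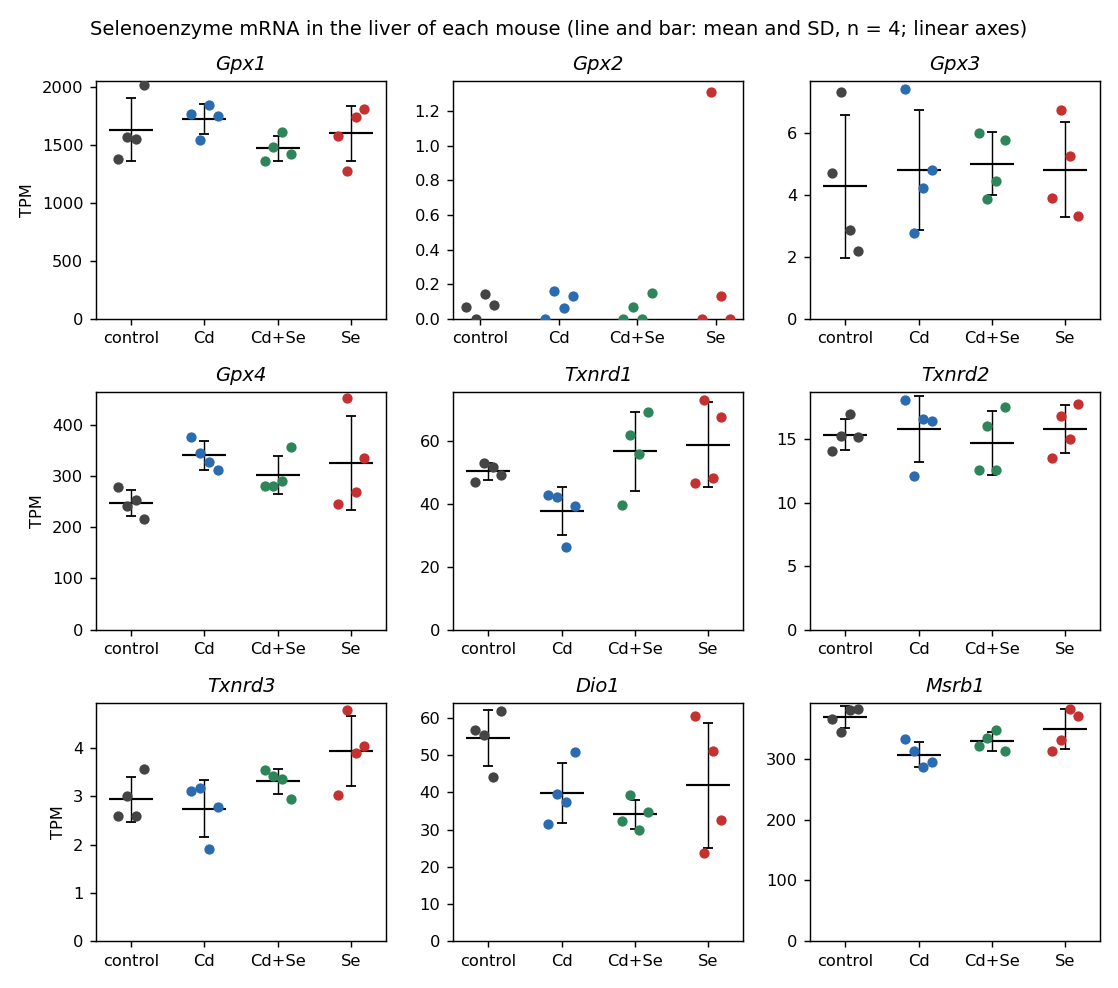
TPM of the 9 selenoenzyme genes (vertical axes, linear and starting at 0) in the liver of each mouse (points), by group; lines and bars are the mean and SD of 4 mice, left out for Gpx2, which was listed at 0 in 6 of 16 libraries. The Cd points of Gpx4 lie above all control points, and those of Txnrd1 and Msrb1 below all control points.

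The differences between groups were tested with limma on log2(TPM + 1), over the 11766 genes whose mean level reached 1 TPM, and p-values were adjusted over all of them. Of the 9 members, 8 passed this filter on the mean over all 16 libraries, and Gpx2 did not. Against control, Cd raised Gpx4 and lowered Msrb1, and the other 6 tested members did not pass. That is 2 of 8 members called, beside 30.8% of all genes tested. In the same comparison the 4 Cd and 4 control values did not overlap for 3 of 8 members (Gpx4, Msrb1 and Txnrd1), beside 34.2% of all genes. Over all genes tested, 24.9% were called lower and 5.82% higher, but this split depended on the scaling: 2934 genes were lower and 685 higher as deposited, 2276 and 1710 after quantile normalization, and 1804 and 2260 when each library was centred on its median. The median of all genes tested was -0.17 on the log2 scale, and that of the 8 members was -0.03. In whole liver, less mRNA per cell and fewer cells of a type cannot be told apart.

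Gpx4 reduces phospholipid hydroperoxides within membranes and is the peroxidase that restrains ferroptosis. It was at 277.57, 241.33, 253.42 and 216.81 TPM in control mice 27 to 30. In Cd mice 1, 2, 5 and 6 it was at 376.73, 344.20, 327.35 and 311.58 TPM. Every Cd mouse was above every control mouse, with means of 340 ± 27.9 and 247 ± 25.3 TPM (SD, n = 4). The fitted change was 0.46 on the log2 scale (SE 0.159, 95% interval 0.12 to 0.80, limma adjusted p = 0.0384), a fold of 1.38. Cd+Se mice 13 to 16 were at 280.44, 281.09, 289.99 and 355.91 TPM, also all above control, but the change against control, 0.29 (95% interval -0.05 to 0.62), did not pass (adjusted p = 0.547). Se mice 39, 40, 41 and 44 were at 245.15, 451.55, 269.06 and 334.65 TPM and overlapped the control mice. The mean in the Se group, 325 ± 92.4 TPM, rested in part on mouse 40, whose value was the highest of all 16.

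The call on Gpx4 against control was close to the threshold. It was kept without each of the 8 Se or Cd+Se mice and lost without Cd mouse 1, 2 or 5 or control mouse 28, 29 or 30, with log2 changes of 0.40 to 0.52 and adjusted p of 0.0102 to 0.101 over the 16 omissions. Gpx4 has a transcribed processed pseudogene, Gpx4-ps2, listed at 0.97 to 5.9 TPM, at most a small fraction of the Gpx4 level. The effect of Cd on Gpx4 was smaller with Se than without it by -0.53 on the log2 scale (SE 0.225, 95% interval -1.01 to -0.06), and this difference did not pass over all genes (adjusted p = 0.193). In limma 0 of 8 members were called for that interaction, beside 1.04% of all genes. An unadjusted p under 0.05 was found for 1 of 8 members (Gpx4), beside 21.29% of all genes.

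Gpx1, the cytosolic peroxidase for hydrogen peroxide, is the member most known to follow selenium supply. It stood at 1379, 1574, 1557 and 2017 TPM in control mice 27 to 30 and at 1765, 1547, 1849 and 1749 TPM in Cd mice 1, 2, 5 and 6. Cd+Se mice 13 to 16 had 1363, 1488, 1610 and 1427 TPM, and Se mice 39, 40, 41 and 44 had 1578, 1279, 1739 and 1816 TPM. All 4 groups overlapped. The change with Se alone was -0.02 on the log2 scale (SE 0.132, 95% interval -0.31 to 0.26, adjusted p = 1). The change with Cd was 0.09 (95% interval -0.19 to 0.37, adjusted p = 0.625), and that of Cd+Se against Cd was -0.23 (95% interval -0.51 to 0.05, adjusted p = 0.238).

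Gpx3, the secreted peroxidase of plasma that comes mostly from kidney, was low in liver. Its values ran from 2.18 to 7.35 TPM in control, 2.78 to 7.42 TPM with Cd, 3.88 to 6.00 TPM with Cd+Se and 3.33 to 6.77 TPM with Se. The groups overlapped fully, and the interval of the Cd change was the widest of the tested members (0.18, 95% interval -0.43 to 0.79, adjusted p = 0.667). Markers of kidney tubule were together at 0 to 27.95 TPM, nearly all from a single gene of the 5, with the highest sums in a control and a Cd mouse; whether they bear on Gpx3 was not tested.

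Gpx2, the peroxidase of gut epithelium, was at the edge of what the table records. It was listed at 0 in 6 of 16 livers and at 0.06 to 0.16 TPM in 9. The remaining value, 1.31 TPM, belonged to Se mouse 40. The exact permutation test over the 70 arrangements of 4 against 4 mice gave p = 0.8 for Se against control and p = 0.857 for Cd against control (two-sided, smallest possible p = 0.0286). The gene lies on the minus strand of chr12:76792333-76795554 and overlaps Fntb on the plus strand, which was at 0.29 to 1.16 TPM. The strand setting of the count is not stated, so reads of these genes could not be separated here.

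Txnrd1, the cytosolic reductase that keeps thioredoxin reduced with electrons from NADPH, was lower with Cd alone than in any other group by its mean. The control mice lay close together, at 47.11, 53.25, 51.91 and 49.36 TPM. The Cd mice were at 42.87, 42.16, 26.40 and 39.56 TPM, all below every control mouse. The change was -0.43 on the log2 scale (SE 0.190, 95% interval -0.83 to -0.03) and did not pass over all genes (adjusted p = 0.0954). Cd+Se mice 13 to 16 were at 39.86, 62.12, 55.92 and 69.33 TPM, of which mouse 13 fell within the Cd range. Se mice 39, 40, 41 and 44 were at 46.60, 73.31, 48.17 and 67.67 TPM.

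Adding Se to Cd went with a Txnrd1 change of 0.57 on the log2 scale (SE 0.190, 95% interval 0.17 to 0.98), a fold of 1.49, and the adjusted p of 0.0506 was just outside the threshold. It was within it without Cd mouse 1 (0.0446), Cd+Se mouse 13 (0.0181), Se mouse 39 (0.0492) or Se mouse 40 (0.0409), and at 0.165 without Cd mouse 5. In this comparison limma called 0 of 8 members, beside 15.9% of all genes. Txnrd1 was the 1 member with an unadjusted p under 0.05, beside 33.07% of all genes. For 0 of 8 members were the 4 Cd+Se values clear of the 4 Cd values, beside 19.2% of all genes. The comparison shares its Cd mice with that of Cd against control, and a low value in a Cd mouse enters both with opposite sign. The Cd effect on Txnrd1 with Se differed from that without it by 0.38 (95% interval -0.19 to 0.95, adjusted p = 0.434).

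Txnrd2, the mitochondrial reductase, was at 14.05, 15.23, 16.98 and 15.17 TPM in control and at 18.08, 12.10, 16.62 and 16.42 TPM with Cd. With Cd+Se it was at 12.58 to 17.51 TPM and with Se at 13.51 to 17.76 TPM. All groups overlapped, and the change with Cd was 0.03 on the log2 scale (95% interval -0.27 to 0.32, adjusted p = 0.896). The ratio of Txnrd1 to Txnrd2 within a liver was 3.29 ± 0.184 in control, 2.46 ± 0.779 with Cd, 3.86 ± 0.522 with Cd+Se and 3.71 ± 0.497 with Se (SD, n = 4).

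Txnrd3, which can reduce both thioredoxin and glutathione and is best known from testis, ranged from 1.90 to 4.79 TPM. Its control values were 2.60, 3.01, 2.59 and 3.58 TPM, and its Se values 3.03, 4.79, 3.91 and 4.05 TPM, so that 3 of 4 Se mice lay above all control mice. The change with Se was 0.32 on the log2 scale (SE 0.142, 95% interval 0.02 to 0.62, adjusted p = 1). Cd mice ranged from 1.90 to 3.18 TPM and Cd+Se mice from 2.94 to 3.54 TPM.

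Msrb1 reduces the R form of methionine sulfoxide in cytosol and nucleus. It was at 366.95, 345.35, 381.80 and 383.34 TPM in control mice and at 332.69, 312.99, 286.15 and 295.98 TPM in Cd mice. Every Cd mouse was below every control mouse, with means of 307 ± 20.4 and 369 ± 17.6 TPM (SD, n = 4). The fitted change was -0.27 on the log2 scale (SE 0.0937, 95% interval -0.47 to -0.07, limma adjusted p = 0.0403), a fold of 0.831, but it was -0.05 (adjusted p = 0.739) when each library was centred on its median. With Cd+Se the values were 321.26, 334.80, 348.42 and 312.61 TPM, between the means of control and Cd. The change of Cd+Se against Cd, 0.10 (95% interval -0.10 to 0.30), did not pass (adjusted p = 0.473), and neither did that against control (-0.17, adjusted p = 0.554). Se mice were at 312.59, 331.60, 382.60 and 370.93 TPM. The call against control was lost without any 1 control mouse, Cd mouse 2, 5 or 6, or Cd+Se mouse 14, with adjusted p of 0.0276 to 0.1002 and changes of -0.31 to -0.23 over the 16 omissions.

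Dio1 removes iodine from thyroxine to give triiodothyronine, and its transcription is known to rise with thyroid hormone. The control livers had 56.72, 55.39, 44.16 and 62.02 TPM. With Cd the values were 31.38, 39.55, 37.38 and 50.95 TPM, and only mouse 6 reached into the control range. With Cd+Se they were 32.32, 39.18, 29.95 and 34.82 TPM, all below control. Se mice had 60.48, 23.69, 51.11 and 32.47 TPM, which spanned from the lowest value of all 16 mice to within the control range. Against control the changes were -0.46 with Cd (SE 0.229, 95% interval -0.94 to 0.03, adjusted p = 0.142), -0.66 with Cd+Se (95% interval -1.15 to -0.17, adjusted p = 0.279) and -0.45 with Se (95% interval -0.94 to 0.03, adjusted p = 1) on the log2 scale. The 3 comparisons share the control mice, and none passed. In Cd+Se against control limma called 0 of 8 members, beside 0.484% of all genes. Dio1 was the 1 member with an unadjusted p under 0.05, beside 10.93% of all genes. The values of 2 of 8 members (Gpx4 and Dio1) did not overlap, beside 8.86% of all genes.

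**Figure D2:**
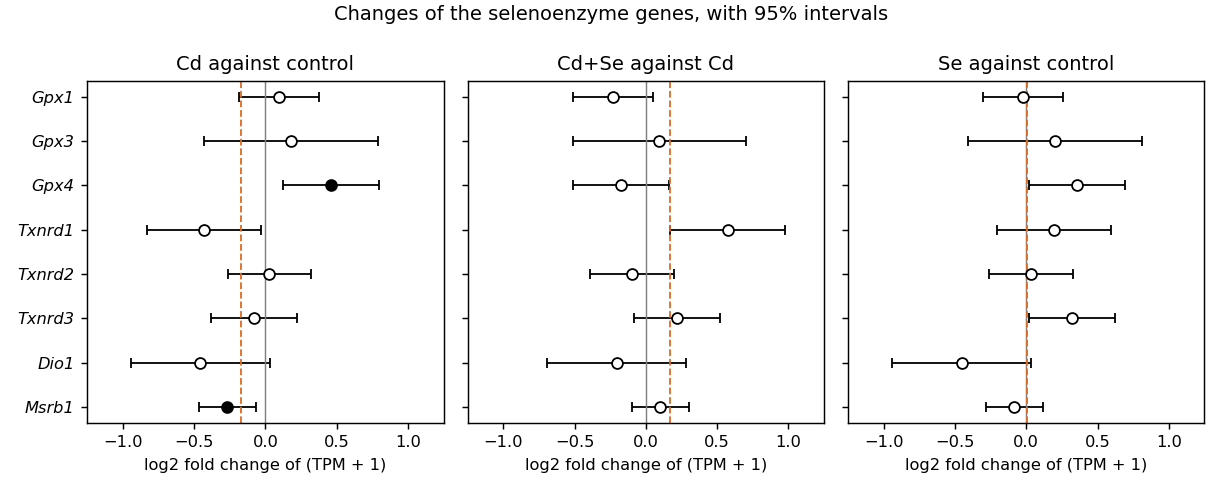
Fitted log2 fold change of (TPM + 1) with its 95% interval (horizontal axes) for the 8 tested selenoenzyme genes in 3 comparisons; filled points passed an adjusted p of 0.05 and the dashed line is the median of all genes tested. Gpx4 (0.46) and Msrb1 (-0.27) are the filled points, both in Cd against control, and the interval of Txnrd1 lies above 0 in Cd+Se against Cd.

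Selenium alone called 0 of 8 members and 0% of the 11766 genes in limma, where 454 genes had an unadjusted p under 0.05, and Gpx4 and Txnrd3 were the members among them. No member had Se values clear of the control values, beside 3.09% of all genes. The spread among the Se mice was wide for the members: the median SD on the log2 scale over the 8 tested members was 0.277 in Se and 0.157 in control, against 0.219 and 0.149 over all genes. Se mouse 40 had the highest value of all 16 mice for 3 of the 8 members (Gpx4, Txnrd1 and Txnrd3) and the lowest for 2 (Gpx1 and Dio1). Control mouse 30 had the same tally, highest for Gpx1, Dio1 and Msrb1 and lowest for Gpx3 and Gpx4, and it enters every comparison against control. Without Se mouse 40 the Se change of Gpx4 was 0.19, and that of Dio1 was -0.22. Cd+Se against Se, in which the mice differ in CdCl2 on the same diet, also gave 0 of 8 members in limma, adjusted or unadjusted. Of all genes 0.714% were called and 10.93% had an unadjusted p under 0.05. The 2 groups overlapped for all 8 members, where 5.64% of all genes did not overlap. There the Gpx4 change was -0.07 (95% interval -0.41 to 0.26) and that of Txnrd1 was -0.05 (95% interval -0.46 to 0.35).

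A ratio of members within a library is unchanged by a single scaling factor per library. It can change under quantile normalization or the correction for length and GC content. The pair of Gpx4 and Msrb1 was chosen after their values were seen, because they were the members called in opposite directions, so the ratio is a description without a test. Gpx4 over Msrb1 was 0.671 ± 0.0801 (SD, n = 4) in control and 1.11 ± 0.0409 with Cd, with ranges of 0.566 to 0.756 and 1.05 to 1.14. With Cd+Se it was 0.921 ± 0.146 and with Se 0.938 ± 0.294. The ratio was above 1 in 4 of 4 Cd mice, 0 of 4 control mice, and 1 of 4 mice in each of the groups fed SeMet (Cd+Se mouse 16 and Se mouse 40). Gpx1 over Gpx4 was 6.73 ± 1.84 in control, 5.11 ± 0.607 with Cd, 4.93 ± 0.676 with Cd+Se and 5.29 ± 1.71 with Se. Txnrd1 over Dio1 was 0.941 ± 0.172, 0.979 ± 0.302, 1.67 ± 0.337 and 1.72 ± 1.08 in the same order of groups.

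**Figure D3:**
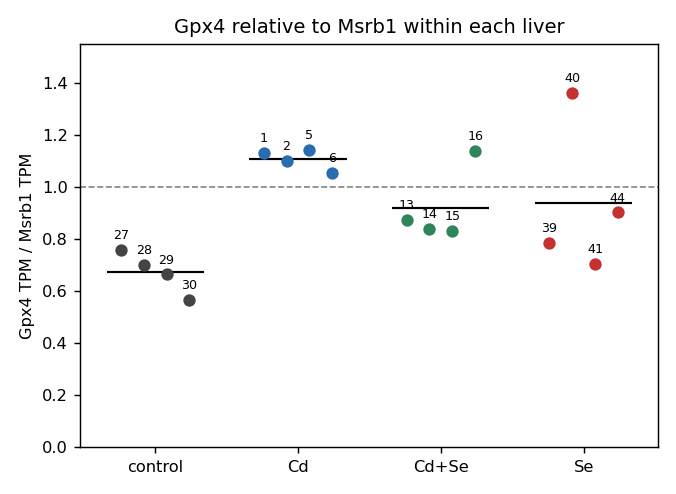
Ratio of Gpx4 to Msrb1 TPM (vertical axis, linear and starting at 0) within the liver of each mouse, labelled by mouse number; lines are group means and the dashed line marks equal levels. The 4 Cd points lie between 1.05 and 1.14, above all control points, which lie between 0.566 and 0.756.

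Changes in the whole table moved with transcript length, and the members differ in length. When genes were put into 5 bins of like size by their longest transcript, the median Cd change was 0.07 in the shortest bin (114 to 1668 bases) and fell through -0.13, -0.21 and -0.27 to -0.30 in the longest (4965 bases and more). For Cd+Se against Cd the medians ran the other way, from -0.03 to 0.29. Gpx4 (995 bases), Gpx1 (1072 bases), Msrb1 (1211 bases) and Gpx3 (1594 bases) belong to the shortest bin, and Txnrd1 (3622 bases) to bin 4. Beside their bins, Gpx4 was higher, Msrb1 lower and Txnrd1 lower with Cd than the median gene of like length. After a smooth correction of each library for length and GC content, chosen after seeing the data, the Cd change was 0.34 for Gpx4 (adjusted p = 0.0366) and -0.30 for Msrb1 (adjusted p = 0.0209), so both calls were kept. The Txnrd1 change with Cd, -0.43 as deposited, was -0.19 after that correction (adjusted p = 0.333) and -0.21 when each library was centred on its median (adjusted p = 0.252). The Txnrd1 change of Cd+Se against Cd was 0.36 (adjusted p = 0.0971) after the correction.

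**Figure D4:**
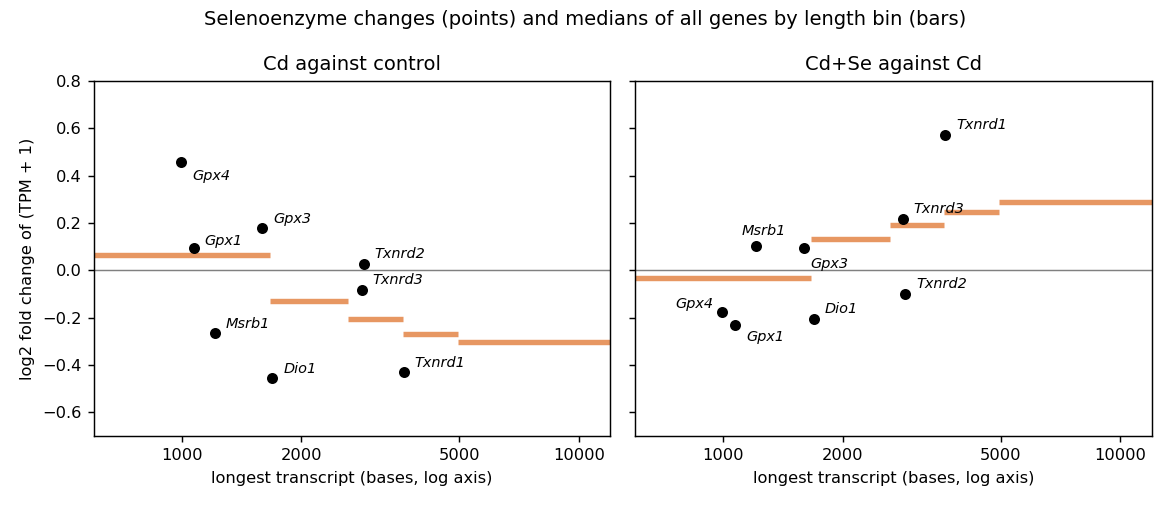
Fitted log2 fold change (vertical axes) of the 8 tested selenoenzyme genes (points) against the length of their longest transcript (horizontal log axes), with the median of all genes in each length bin as bars, whose outer ends are drawn only to the plot edge. In Cd against control the bars fall from 0.07 to -0.30 with Gpx4 above and Msrb1 below the bar of the shortest bin; in Cd+Se against Cd they rise from -0.03 to 0.29.

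Cell type markers also moved with the groups. All 5 Kupffer cell markers were lower with Cd than in control, and their summed level was 100.6 to 124.7 TPM in control, 33.94 to 52.64 TPM with Cd, 29.77 to 62.86 TPM with Cd+Se and 54.74 to 137.5 TPM with Se. All 3 tested of 5 neutrophil markers were higher with Cd, and the summed level of the list was 5.82 to 16.04, 31.28 to 40.05, 44.5 to 73.8 and 5.17 to 9.35 TPM in the same order. Markers of monocytes and recruited macrophages were at 47.08 to 65.53, 38.85 to 58.75, 69.37 to 118.1 and 39.16 to 59.06 TPM in sum, so that all Cd+Se mice lay above all Cd mice. Of the 4 tested of 5, 2 were higher and 1 lower with Cd, and 2 were higher in Cd+Se against Cd. With Cd, 1 of 6 hepatocyte, 1 of 5 sinusoidal endothelial and 1 of 5 stellate cell markers were lower. Adding Se to Cd raised 1 hepatocyte and 1 sinusoidal endothelial marker. The part of these cells in the changes of Gpx4, Msrb1 and Txnrd1 was not tested. Adipocyte markers summed to at most 1.48 TPM in any liver.

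**Figure D5:**
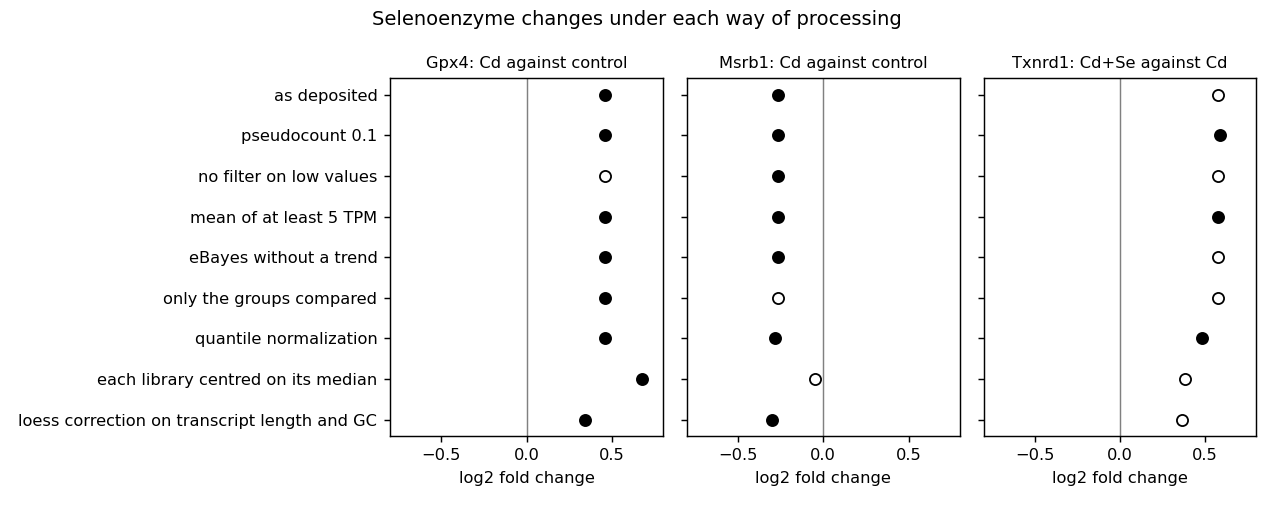
Log2 fold change (horizontal axes) of Gpx4 and Msrb1 in Cd against control and of Txnrd1 in Cd+Se against Cd under each way of processing (rows); filled points passed an adjusted p of 0.05. Gpx4 stays between 0.34 and 0.68 and is open in a single row, Msrb1 moves to -0.05 when each library is centred on its median, and Txnrd1 is filled in 3 of 9 rows.

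The level across the 16 livers was also compared between each tested member and 10483 protein-coding genes, by Pearson's r of log2 levels, as a description of libraries that share their groups and scaling. Txnrd1 was most like Ubl3 (r = 0.96) and Ap2a1 (r = 0.95), Txnrd3 most like Dock9 (r = 0.93) and Fuca2 (r = 0.86), and Gpx4 most like Arl6ip4 (r = 0.93) and Blvrb (r = 0.90). Msrb1 was most like Hyal2 (r = 0.91) and Acsm3 (r = 0.89). Dio1 stood nearest to the major urinary protein genes Mup13 (r = 0.83) and Mup18 (r = 0.79), and Gpx1 nearest to Mup10 (r = 0.76) and mt-Atp6 (r = 0.73). Txnrd2 (Prdm9 and Fbxl21, r = 0.75 each) and Gpx3 (Synpo, r = 0.81, and Hlx, r = 0.76) completed the list. Among the members, Txnrd1 and Txnrd3 were the pair with the highest r (0.68) and Gpx4 and Dio1 that with the lowest (-0.80).

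The members were then set beside the genes they work with, in 6 lists of 61 genes of which 52 were tested. Of these 52, 6 rose and 10 fell with Cd, a share called like that of all genes (30.8%). When Se was added to Cd (Cd+Se against Cd), 4 rose and 4 fell, where 13.6% of all genes were called higher and 2.35% lower. That split also turned with the scaling, from 1600 higher and 276 lower as deposited to 1170 and 908 after quantile normalization, 862 and 795 once length and GC were corrected, and 937 and 1272 with median centring. None was called by limma in Cd+Se against control, in Se against control or in Cd+Se against Se, where 8, 4 and 8 of the 52 had an unadjusted p under 0.05. Over all genes the shares with such a p were 10.93%, 3.859% and 10.93%. The lists are small, and all comparisons against control share the same 4 mice.

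Among 11 tested of 15 other selenoprotein genes, 2 rose and 4 fell with Cd, beside 5.82% of all genes called higher and 24.9% lower. The median change of the 11 genes was 0.00 on the log2 scale, against -0.17 over all genes. Selenok, a membrane protein of the endoplasmic reticulum, was at 49.1 ± 7.02 TPM in control, 118 ± 18.7 with Cd, 52.5 ± 4.28 with Cd+Se and 52.3 ± 13.6 with Se (SD, n = 4). It rose by 1.24 on the log2 scale with Cd (SE 0.169, adjusted p = 0.00023) and fell by 1.14 in Cd+Se against Cd (adjusted p = 0.00299), with no overlap either time, and both calls held under all 24 other settings. It was also called for the interaction (-1.20, adjusted p = 0.0343), a call kept in 14 of 23 other settings and in 8 of the 16 omissions of a mouse. Selenow, a small redox protein, rose by 0.46 (adjusted p = 0.00841). Selenop, the plasma selenium carrier that the liver makes, was at 3677 ± 214 TPM in control and 2600 ± 453 TPM with Cd. It fell by 0.52 (adjusted p = 0.00809), and with Cd+Se it stood at 3579 ± 247 TPM, 0.48 above Cd on the log2 scale (adjusted p = 0.0248). The Selenop call in Cd+Se against Cd was kept in 19 of 24 other settings, with adjusted p up to 0.0688 over single omissions. Selenoi, an enzyme of phosphatidylethanolamine synthesis, fell by 0.56 (adjusted p = 0.0219). Its call was kept in 18 of 24 other settings, with adjusted p up to 0.0739 over single omissions. Selenot, of the endoplasmic reticulum, fell by 0.47 (adjusted p = 0.0251), and Sephs2, which makes the selenium donor for selenocysteine, fell by 0.33 (adjusted p = 0.0264). The Selenot call was kept in 20 of 24 other settings, with adjusted p up to 0.067 over single omissions.

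Of 5 tested of 8 relatives that work without selenium, such as glutathione reductase (Gsr) and the methionine sulfoxide reductases Msra, Msrb2 and Msrb3, 0 were called by limma with Cd or in Cd+Se against Cd, where 2 (Msra and Msrb3) had an unadjusted p under 0.05 each time. Over all genes 42.47% and 33.07% had such a p. The changes of the 5 relatives with Cd ran from -0.41 to 0.28. Of 6 tested genes of NADPH supply 0 were called, with unadjusted counts of 0 with Cd and 1 (G6pdx) in Cd+Se against Cd, and with Cd changes of -0.24 to 0.14.

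Of 13 thioredoxin partners, 3 rose and 1 fell with Cd, beside 5.82% of all genes called higher and 24.9% lower. Txn1, the main substrate of Txnrd1, was at 156 ± 12.1 TPM in control, 218 ± 15.4 with Cd and 163 ± 18.6 with Cd+Se. It rose by 0.49 with Cd (SE 0.106, adjusted p = 0.00358) and fell by 0.43 in Cd+Se against Cd (adjusted p = 0.0175), the opposite signs to those fitted for Txnrd1 (-0.43 and 0.57, neither called). After the length and GC correction the Txnrd1 changes were -0.19 and 0.36, again neither called. Whether transcript length bears on this contrast was not tested. Txnl1, a thioredoxin-like protein, rose by 0.55 (adjusted p = 0.0169) and Prdx5, a peroxiredoxin, by 0.27 (adjusted p = 0.0493). For both genes the values of the Cd and control mice overlapped. The Txnl1 call was kept in 22 of 24 other settings, with adjusted p up to 0.055 over single omissions. The Prdx5 call was kept in only 7 of 24 other settings, with adjusted p up to 0.127 over single omissions. In Cd+Se against Cd, Prdx5 was 0.30 lower (limma adjusted p = 0.0487), again with overlapping values. That call was kept in 10 of 24 other settings, with adjusted p up to 0.135 over single omissions. Rrm2, the small subunit of ribonucleotide reductase, fell by 1.15 (adjusted p = 0.0161). Its call was kept in 21 of 24 other settings, with adjusted p up to 0.0577 over single omissions.

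Of 9 tested of 11 genes of glutathione supply, 1 rose and 2 fell with Cd, beside the same shares of all genes (5.82% higher and 24.9% lower). Gclm, the modifier subunit of the enzyme that limits glutathione synthesis, rose by 0.63 (adjusted p = 0.0205), from 99.98 ± 3.40 to 155 ± 17.1 TPM. Oplah, which returns 5-oxoproline to glutamate, fell by 0.94 (adjusted p = 0.00078) and rose by 0.61 in Cd+Se against Cd (adjusted p = 0.021). The Oplah call in Cd+Se against Cd was kept in 18 of 24 other settings, with adjusted p up to 0.0576 over single omissions. Glrx, glutaredoxin, fell by 0.50 (adjusted p = 0.0287), a call kept in 16 of 24 other settings, with adjusted p up to 0.0885 over single omissions.

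Of 8 thyroid hormone genes, listed because Dio1 activates that hormone, 0 rose and 3 fell with Cd, among them Thrb and Slc16a10, beside 24.9% of all genes called lower. The receptor gene Thrb was at 10.1 ± 1.51 TPM in control, 5.31 ± 1.02 with Cd and 9.46 ± 1.84 with Cd+Se. It fell by 0.82 with Cd (SE 0.154, adjusted p = 0.0014) and rose by 0.73 in Cd+Se against Cd (adjusted p = 0.0101). The transporter gene Slc16a10 fell by 0.52 (adjusted p = 0.0244), a call kept in 18 of 24 other settings, with adjusted p up to 0.0708 over single omissions. In Cd+Se against Cd, Slc16a10 was 0.65 higher (adjusted p = 0.0187) and the receptor gene Thra was 0.65 lower (adjusted p = 0.0465). There the Slc16a10 call was kept in 20 of 24 other settings, with adjusted p up to 0.0568 over single omissions. The Thra groups overlapped, and its call was kept in 9 of 23 other settings, with adjusted p up to 0.108 over single omissions. Dio1 itself had its lowest group mean with Cd+Se, at 34.1 ± 3.95 TPM.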

How the data were processed

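Poly(A) RNA from the liver of 16 mice (4 groups of 4) was sequenced at Majorbio. The authors deposited a single table of TPM per gene, and the submitters' processing notes name fastp, HISAT2 and StringTie, without versions, and the human build GRCh38, although the gene identifiers are those of mouse. Strand setting and read depth are not given in the sources used here, so no counting interval could be set. Each title joins a pair of repeat names for 1 numbered sample, and the table has 1 column for each. TPM were taken as log2(TPM + 1), genes whose mean reached 1 TPM were kept (11766), and a group-means model was fitted to all 4 groups with limma 3.58.1 in R 4.3.3 (empirical Bayes with a trend), with Benjamini-Hochberg adjustment over all genes and a threshold of 0.05. Gpx2, under the filter, was tested by exact permutation. Genes outside the 9 members were named if listed in a pathway list and called in Cd against control or Cd+Se against Cd, and the metallothioneins served as the check of labels. The members and the lists were chosen with earlier results of these data known. Alternatives were another pseudocount (0.1), no filter, a mean of at least 5 TPM, quantile normalization, median centring, only the groups compared, no trend, and leaving out each mouse. Smoothing each library by loess against the length and GC content of its transcripts (span 0.5, 11561 genes, GENCODE M21 on GRCm38) was added after seeing the data. Some items are not reported here.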

Additional observations from a re-analysis of the deposited data

Results flagged for a closer look

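The gap between an extreme mouse and its nearest neighbour, as a share of the range of its group, passed Dixon's limit in 4 of 104 groups of 4 values examined, where chance alone would flag about 5.2. Members gave 2 of these among 36 groups. Gpx2 in Se mouse 40 was at 1.31 TPM, against 0 to 0.13 TPM in the other Se mice, and the gap was 0.901 of the range. Gpx4 in Cd+Se mouse 16 was at 355.91 TPM, against 280.44 to 289.99 TPM, a gap of 0.874 of the range. Txnl1 in Cd+Se mouse 13 was lowest at 63.34 TPM, against 69.83 to 70.87 TPM (0.862 of the range), and Prdx5 in Cd mouse 6 was lowest at 149.8 TPM, against 172.1 to 176.16 TPM (0.846 of the range).

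Selenok was the only member or named list gene whose Cd effect differed between mice with and without SeMet after adjustment, by -1.20 on the log2 scale (95% interval -1.71 to -0.69, limma adjusted p = 0.0343). The adjusted p ran from 0.026 to 0.0883 over the omission of single mice, and 14 of 23 other settings kept the call.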

How the results depend on the processing

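In Cd against control 2 members were called as reported. The count was 1 with no filter on low values (Gpx4 lost, adjusted p = 0.0842), 1 with median centring and 1 with only the groups compared (Msrb1 lost both times), and 0 to 2 over the omission of single mice, being 0 without control mouse 28, 29 or 30 or Cd mouse 2 or 5. The 16 list genes called became 9 with no filter, 26 with median centring and 7 to 18 over single omissions. In Cd+Se against Cd the count of members, 0 as reported, was 1 with pseudocount 0.1, a mean of at least 5 TPM or quantile normalization (Txnrd1), 1 with median centring (Gpx4, lower), and 0 to 1 over single omissions. The 8 list genes became 5 with no filter, 18 with median centring, 1 with only the groups compared, 13 with the length and GC correction, and 3 to 11 over single omissions. In Cd+Se against control quantile normalization called 1 list gene. For the interaction, 0 members became 1 with median centring (Gpx4), and 1 list gene became 0 with no filter, 2 with a mean of at least 5 TPM, 3 with quantile normalization, 6 with median centring, 5 with the length and GC correction, and 0 to 2 over single omissions. Over all genes, Cd calls after correcting for length and GC were 1570 higher and 2024 lower, and those of Cd+Se against Cd fell from 1876 to 66 with only the groups compared. The causes were not tested.

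The following changes of members turned sign, and none was called: Gpx1 with Cd under quantile normalization (-0.023), Gpx3 in Cd+Se against Cd under quantile normalization (-0.11) and median centring (-0.10), Txnrd3 with Cd under quantile normalization (0.09), median centring (0.14) and the length and GC correction (0.11), and Msrb1 in Cd+Se against Cd under median centring (-0.092). Over single omissions, Gpx2 ran from -0.0139 to 0.0588 with Cd and from -0.0406 (without Se mouse 40) to 0.36 with Se. Gpx1 ran from -0.10 to 0.0823 with Se. Gpx3 ran from -0.0316 to 0.43 with Cd, -0.092 to 0.29 in Cd+Se against Cd and -0.0075 to 0.46 with Se. Txnrd2 ran from -0.0379 to 0.14 with Cd and -0.0242 to 0.0993 with Se, and Txnrd3 from -0.14 to 0.0354 with Cd. In Cd+Se against Se, Gpx4 ran from -0.19 to 0.0981 and Txnrd1 from -0.16 to 0.10. No paired analysis was possible because the mouse numbers are not shared between groups, and the repeat names in the titles have no columns of their own. Without read counts, low members such as Gpx2, Gpx3 and Txnrd3 carry an unknown counting error.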
